A study of Mus musculus with 2 samples.

Results

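Chemokine ligands are small secreted proteins that steer the movement and placement of leukocytes and other cells. This account covers every gene named as a CC, CXC or XC ligand in a single-nucleus RNA-seq series of the mouse salivary gland. The members were taken by symbol alone (Ccl, Cxcl or Xcl1 with its number), with no use of their values: 38 of the 26033 genes in the files have such a symbol. Of these, 19 had at least 20 unique molecular identifiers (UMIs, one per captured transcript) over the nuclei of both libraries and are described below, 10 of them with at least 100 UMIs.

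The series holds 1 library from Csf2-/- glands (null) and 1 library from Csf2+/- glands (heterozygous), from mice aged 20 days on a background labelled C56BL/6. Csf2 encodes the cytokine GM-CSF, and both groups lack at least 1 intact copy, so no wild-type library enters. Whole salivary glands were digested to release cells, nuclei were isolated without sorting, and 3' ends were counted on the 10x Chromium platform. How many animals went into each library is not stated in the sources used here. With 1 library per genotype no test was possible: every interval below is a 95% interval for counting error alone, and every difference is one between 2 libraries.

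Chemokines act on G-protein-coupled receptors of the leukocyte surface, and atypical receptors bind them without the usual signal and clear them. Some are made constantly by epithelium, stroma or lymphatic vessels and keep resident cells in place, while others are induced by NF-kB or interferon signals and call in monocytes, neutrophils or T cells. In salivary and other exocrine glands Ccl28, a ligand of Ccr10 and Ccr3, is known for drawing IgA-secreting plasma cells to the epithelium.

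The null library gave 13876 nuclei with a median of 1977 UMIs, and the heterozygous library gave 8532 nuclei with a median of 2818 UMIs. Csf2 itself had 0 UMIs in null nuclei and 2 in heterozygous nuclei, and in barcodes of 500 to under 1000 UMIs it had 0 in the null library and 3 in the heterozygous library, too few to check the labels firmly. Those low barcodes, taken with a minimum of 300 genes, were read as free RNA: 37855 in the null library and 48554 in the heterozygous library. Without that minimum, 72528 null barcodes had at least 500 UMIs and 17668 had at least 1000. In the heterozygous library 68460 had at least 500 UMIs and 19399 at least 1000, so the minimum removed mostly null barcodes. Its part in the free-RNA values was not tested. From the share of the 8 most abundant secretory transcripts (Mucl2 and Scgb1b27 foremost, which also show the tissue), free RNA was put at 41.8% of nuclear UMIs in the null library and 39.6% in the heterozygous library, an upper figure for acinar nuclei, which make these transcripts themselves. The libraries also stood apart in other ways: 2 clusters of free RNA were almost wholly from 1 library each (3613 null and 359 heterozygous barcodes, 174 null and 10496 heterozygous barcodes), the largest acinar-type group split by library (cluster 0 with 5505 null and 447 heterozygous nuclei, cluster 1 with 1245 null and 3326 heterozygous nuclei), and the early-response gene Nr4a3 had 1506 UMIs in null nuclei and 3712 in heterozygous nuclei. The libraries shared 25 barcode sequences among their nuclei.

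By cluster, the ligands differed in the class where they were highest. Ccl28 and Ccl25 were found in all classes and Ccl28 most of all in secretory nuclei, Cxcl17 in duct nuclei, Cxcl14 and Ccl11 in fibroblast-like nuclei, Cxcl12 in endothelial, Schwann-like and fibroblast-like nuclei, Ccl21a in the lymphatic endothelial cluster, Cxcl16, Ccl12, Ccl6 and Ccl9 in macrophage-like nuclei, and Xcl1, Ccl5 and Ccl4 in the cluster of NK, ILC or T-like nuclei. These placements hold for classes set by clustering: with the class of each nucleus set by its own marker counts instead, 2 of the 19 ligands, Cxcl14 and Ccl11, had the same highest class. Classes were set by genes other than the ligands, which were kept out of the clustering. A name was given from markers, with 10 named and 5 unnamed groups among the 15 classes of at least 50 nuclei. The unnamed ones are called by cluster number: clusters 0 and 1 together (few markers of any list), cluster 5 (led by Pex5l and Unc5c), cluster 6 (led by Myrfl and Kcne1, with 5 of 14 seromucous acinar markers), cluster 8 (led by the mitotic genes Knl1 and Kif4) and cluster 12 (led by Lef1 and Edar).

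**Figure D1:**
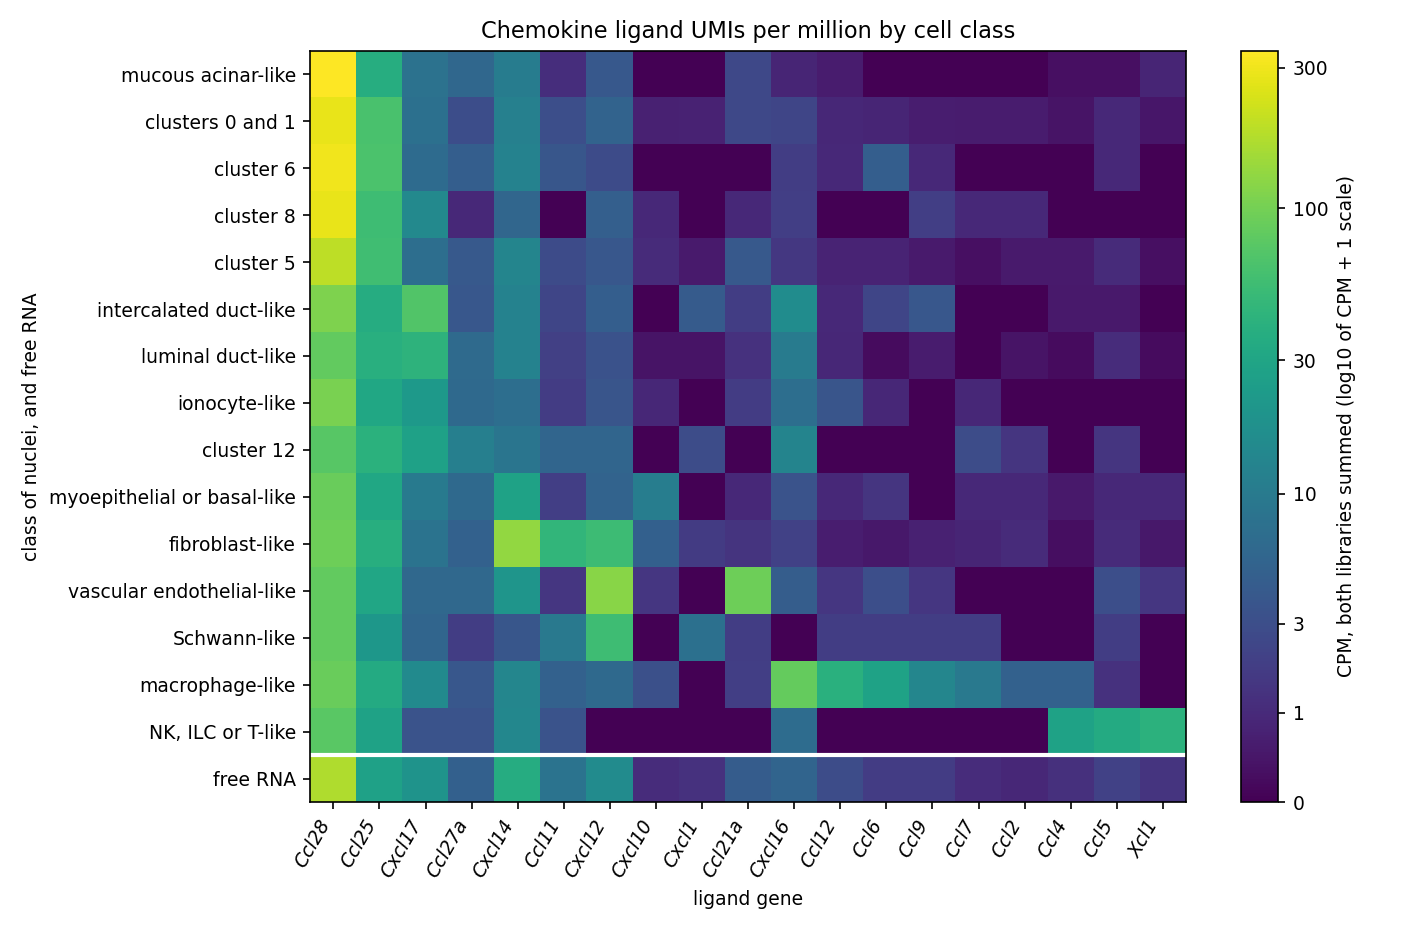
Level of each of the 19 ligands (columns) in each class of nuclei (rows, both libraries summed) and in free RNA (bottom row), in CPM (UMIs of the gene per 1000000 UMIs of the class), coloured on a log10(CPM + 1) scale. Ccl28 fills its whole column, whereas Cxcl14, Ccl21a, Cxcl16 and Xcl1 each stand out in 1 class or few.

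Promoter letters are shown for 4 members, picked as a secretory, a fibroblast, a macrophage and an inducible ligand. Each line gives the 250 bases before the RefSeq start in GRCm38.p6, 5′ to 3′ on the gene's strand, with matches to 5 searched motifs in capitals. The files themselves were counted on GRCm39, and no coordinate was carried between builds.
Ccl28, chr13:119623569-119623818, plus strand: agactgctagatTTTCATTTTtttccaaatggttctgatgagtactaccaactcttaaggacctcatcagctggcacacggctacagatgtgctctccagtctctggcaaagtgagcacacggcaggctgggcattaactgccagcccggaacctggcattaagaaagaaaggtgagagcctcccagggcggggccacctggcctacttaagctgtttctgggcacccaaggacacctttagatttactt
Cxcl14, chr13:56296552-56296801, minus strand: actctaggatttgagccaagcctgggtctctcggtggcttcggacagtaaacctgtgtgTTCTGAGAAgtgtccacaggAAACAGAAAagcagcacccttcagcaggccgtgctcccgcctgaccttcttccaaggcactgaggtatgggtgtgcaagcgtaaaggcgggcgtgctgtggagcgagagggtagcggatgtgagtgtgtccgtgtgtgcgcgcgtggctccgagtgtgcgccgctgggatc
Ccl12, chr11:82101595-82101844, plus strand: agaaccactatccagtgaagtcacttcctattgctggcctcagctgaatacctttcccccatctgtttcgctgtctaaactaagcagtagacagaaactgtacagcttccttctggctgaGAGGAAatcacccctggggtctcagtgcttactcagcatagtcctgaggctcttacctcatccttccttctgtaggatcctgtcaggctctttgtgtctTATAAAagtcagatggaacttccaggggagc
Cxcl10, chr5:92348890-92349139, minus strand: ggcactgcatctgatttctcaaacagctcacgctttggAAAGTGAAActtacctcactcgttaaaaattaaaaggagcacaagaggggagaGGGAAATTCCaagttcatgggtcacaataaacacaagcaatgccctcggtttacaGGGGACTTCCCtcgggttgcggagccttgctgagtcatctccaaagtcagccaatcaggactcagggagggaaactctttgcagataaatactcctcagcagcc
Motifs were searched on both strands: the TATA box TATAAA, the STAT-type motif TTCNNNGAA, the IRF-type motif AAANNGAAA, the PU.1 core GAGGAA and the NF-kB consensus. The Ccl28 capitals are an IRF-type match read on the opposite strand. In Cxcl14 they are a STAT-type match followed by an IRF-type match. In Ccl12 they are a PU.1 core and, nearest the start, a TATA box. In Cxcl10 they are an IRF-type match and then NF-kB matches at 2 places, the second of which holds overlapping matches. Of 32841 promoters of the same length, 12.4% held the TATA box, 7.02% the STAT-type motif, 9.38% the IRF-type motif, 23.3% the PU.1 core and 7.25% the NF-kB consensus. Of the 12 described ligands with a promoter in the table, 3 held the TATA box, 1 the STAT-type motif, 3 the IRF-type motif, 3 the PU.1 core and 3 the NF-kB consensus. A ligand was counted if any of its promoters matched (Ccl25 has 2 and Ccl27a 3), while the percentages are per promoter. Cxcl12, Ccl6 and Xcl1 held no match to any of the motifs, and no such promoter is among those shown. A match describes letters only.

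Ccl28 made up most of the ligand transcripts counted. It had 5251 UMIs in null nuclei and 6301 in heterozygous nuclei, 58.6% of all ligand UMIs, a share of 3' tags that does not compare amounts between genes. Over both libraries its level was highest in mucous acinar-like nuclei at 342 CPM (323 to 362), followed by cluster 6 at 301 CPM (269 to 336), cluster 8 at 284 CPM (252 to 318) and clusters 0 and 1 at 282 CPM (275 to 288), and the intervals of cluster 6, cluster 8 and clusters 0 and 1 overlapped each other. The mucous acinar-like interval overlapped that of cluster 6 alone. Cluster 5 came next at 191 CPM (177 to 205). The other 10 classes lay between 74.9 and 110 CPM. Free RNA alone would account for an estimated 49.2 CPM in mucous acinar-like nuclei and for 72.1 of the 76.4 CPM in NK, ILC or T-like nuclei, and the levels of the classes outside the secretory ones lay nearer to that estimate. In mucous acinar-like nuclei, the class marked by Muc19, Spdef and Galnt12, Ccl28 had 670 UMIs or 292 CPM (270 to 315) in the null library and 538 UMIs or 436 CPM (400 to 474) in the heterozygous library.

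A Ccl28 UMI was seen in 45.4% of null and 67.2% of heterozygous mucous acinar-like nuclei. With each nucleus thinned to 1000 UMIs, these shares were 21.7% (19.1 to 24.5) in the null library and 31.6% (26.7 to 36.9) in the heterozygous library, against 5.44% of null and 8.76% of heterozygous luminal duct-like nuclei. The lower level in the null library was found on the same side in all 14 classes with at least 50 nuclei in each library, with log2 ratios of null over heterozygous between -0.95 in myoepithelial or basal-like nuclei and -0.05 in cluster 12. The interval held 0 in vascular endothelial-like (-1.45 to 0.25), Schwann-like (-1.60 to 0.35) and cluster 12 nuclei (-0.88 to 0.80). The classes share the free RNA of their library, so their ratios are not independent. In the remaining class, NK, ILC or T-like nuclei, Ccl28 lay the other way within counting error, with 14 UMIs or 80.9 CPM (44.2 to 136) in the null and 8 UMIs or 69.5 CPM (30 to 137) in the heterozygous library. In clusters 0 and 1 the ratio was -0.60 (-0.67 to -0.53), and within cluster 0 alone it was -0.43 and within cluster 1 alone -0.45; the libraries fill the clusters unequally. Free RNA showed the same lean, with a log2 ratio for Ccl28 of -0.58 (-0.63 to -0.52), against -0.46 (-0.52 to -0.41) over all nuclei. How far the free RNA enters the ratio between nuclei was not tested beyond subtracting its estimated share, which left -0.45 over all nuclei.

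Ccl25, which binds Ccr9 and is best known from thymus and small intestine, was found in every class, most of all in cluster 6 and clusters 0 and 1. It had 1454 UMIs or 47.8 CPM in null nuclei and 1380 UMIs or 52.1 CPM in heterozygous nuclei, a log2 ratio of -0.12 (-0.23 to -0.02). The highest class was cluster 6 at 65.2 CPM (50.7 to 82.5), whose interval overlapped that of clusters 0 and 1 at 62.7 CPM (59.6 to 65.9). The lowest class was Schwann-like nuclei at 20.9 CPM. Ccl25 overlaps Elavl1 on the opposite strand in the GENCODE annotation, and Elavl1, an RNA-binding protein gene of most cells, had 2868 UMIs in null and 2863 UMIs in heterozygous nuclei. Whether counting used the strand is not given in the sources used here, so reads of the pair cannot be told apart with certainty and the level of Ccl25 is uncertain.

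Cxcl17, a ligand of mucosal epithelium, was highest in intercalated and luminal duct-like nuclei. It had 418 UMIs in null and 386 UMIs in heterozygous nuclei. Intercalated duct-like nuclei (marked by Gfra3, Kit, Nkd2 and Slc39a8) held 72 UMIs or 64.6 CPM (50.5 to 81.3) in the null library and 72 UMIs or 73.7 CPM (57.7 to 92.9) in the heterozygous library. Luminal duct-like nuclei held 108 UMIs or 42.7 CPM in the null library and 121 UMIs or 42.2 CPM in the heterozygous library. Over both libraries the intercalated level of 68.9 CPM (58.1 to 81.1) lay above the luminal one of 42.4 CPM (37.1 to 48.3) with no overlap of intervals, and both were above the 7.68 and 6.45 CPM estimated from free RNA. Between the libraries Cxcl17 differed by no more than counting error in either class, with log2 ratios of -0.19 (-0.68 to 0.30) in intercalated and 0.02 in luminal duct-like nuclei. Ccl27a, known as a skin ligand of Ccr10, had no clear class: it had 145 UMIs in null and 97 UMIs in heterozygous nuclei and lay between 0.97 and 11.5 CPM in every class. Its log2 ratio was 0.38 (0.0002 to 0.77), the only interval over all nuclei among the described ligands that lay above 0. In clusters 0 and 1 the ratio was 0.80 (0.06 to 1.59), and in free RNA 0.18 (-0.14 to 0.50). Ccl27a overlaps Il11ra1 on the opposite strand, which had 921 UMIs in null and 820 UMIs in heterozygous nuclei. Of the described ligands 9 overlap a gene on the opposite strand, among them also Cxcl17, Cxcl16, Cxcl10, Ccl6, Ccl2 and Xcl1. Their counts carry the same doubt about strand. Gm17268, which overlaps Ccl2, had 41 UMIs in null and 33 in heterozygous nuclei, and Art3, which overlaps Cxcl10, had 185 and 209.

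In fibroblast-like nuclei Cxcl14 and Ccl11 were lower in the null library, and Cxcl12 differed by less than counting error. The larger cluster of this class had 10 of the 11 fibroblast markers at least 2-fold above the other nuclei, and the smaller had 9. Cxcl14 is a ligand with roles in stroma and epithelium, Ccl11 (eotaxin) draws eosinophils through Ccr3, and Cxcl12 is the Cxcr4 ligand of stroma and vessels that holds stem cells and lymphocytes in place. Cxcl14 had 429 UMIs or 96.0 CPM (87.1 to 106) in the 1615 null fibroblast-like nuclei and 699 UMIs or 174 CPM (161 to 187) in the 1132 heterozygous ones, a log2 ratio of -0.85 (-1.03 to -0.68). Free RNA would give an estimated 11.4 CPM in the null and 15.2 CPM in the heterozygous class. Of all nuclear Cxcl14 UMIs 65.4% were in this class, and the next class, myoepithelial or basal-like nuclei, was at 27.9 CPM. A Cxcl14 UMI was seen in 20.4% of null and 34.6% of heterozygous fibroblast-like nuclei, whose median depth was 2182 UMIs in the null and 3064 UMIs in the heterozygous library. Thinned to 1000 UMIs the shares were 10.4% (8.96 to 12) in the null library and 14.9% (12.9 to 17.1) in the heterozygous library, against 1.78% of null and 1.29% of heterozygous luminal duct-like nuclei.

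Ccl11 had 126 UMIs or 28.2 CPM (23.5 to 33.6) in null fibroblast-like nuclei and 265 UMIs or 65.8 CPM (58.1 to 74.2) in heterozygous ones, a log2 ratio of -1.22 (-1.54 to -0.91). The class held 74.3% of the nuclear Ccl11 UMIs. Thinned shares of nuclei with a Ccl11 UMI were 3.59% in the null and 5.92% in the heterozygous class (7.0% of null and 16.7% of heterozygous nuclei before thinning), against 0.0938% of null and 0% of heterozygous luminal duct-like nuclei (0.0938% of null and 1.05% of heterozygous nuclei before thinning). No single nucleus carried these counts: the most Ccl11 UMIs in 1 nucleus of any class was 3 in the null and 6 in the heterozygous library, and over all nuclei the ratio was -1.14 with or without the richest nucleus of each library. The larger of the class's 2 clusters gave -1.26 for Ccl11 and -0.87 for Cxcl14. The 11 fibroblast markers summed to 5261 CPM in null and 6254 CPM in heterozygous fibroblast-like nuclei, and the 6 adipocyte markers to 216 CPM in null and 317 CPM in heterozygous ones. Their part in the ligand difference was not tested.

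Cxcl12 had 250 UMIs or 55.9 CPM in null and 203 UMIs or 50.4 CPM in heterozygous fibroblast-like nuclei, a log2 ratio of 0.15 (-0.12 to 0.43). Its highest class was vascular endothelial-like nuclei, with 42 UMIs or 139 CPM in the null library and 36 UMIs or 102 CPM (71.5 to 141) in the heterozygous library, with the log2 ratio at 0.45 (-0.23 to 1.13). The Schwann-like class held 7 UMIs or 30.3 CPM in the null and 22 UMIs or 74.4 CPM in the heterozygous library, a log2 ratio of -1.30 (-2.77 to -0.02) that was -1.15 (-2.78 to 0.26) without the richest nucleus of each library. Markers of other cells moved with it in that class: 9 of 11 vascular endothelial markers, all but Pecam1 and Tek, summed to 30.3 CPM in the null and 159 CPM in the heterozygous library, and all 6 neuron markers summed to 4.32 CPM in the null and 507 CPM in the heterozygous library. Their part in the Cxcl12 difference was not tested. Over both libraries the endothelial level of 119 CPM (94.3 to 149) lay above the Schwann-like level of 55.0 CPM and the fibroblast-like level of 53.3 CPM, which overlapped. Cxcr4, its signalling receptor, had 5 UMIs in null and 5 in heterozygous nuclei.

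**Figure D2:**
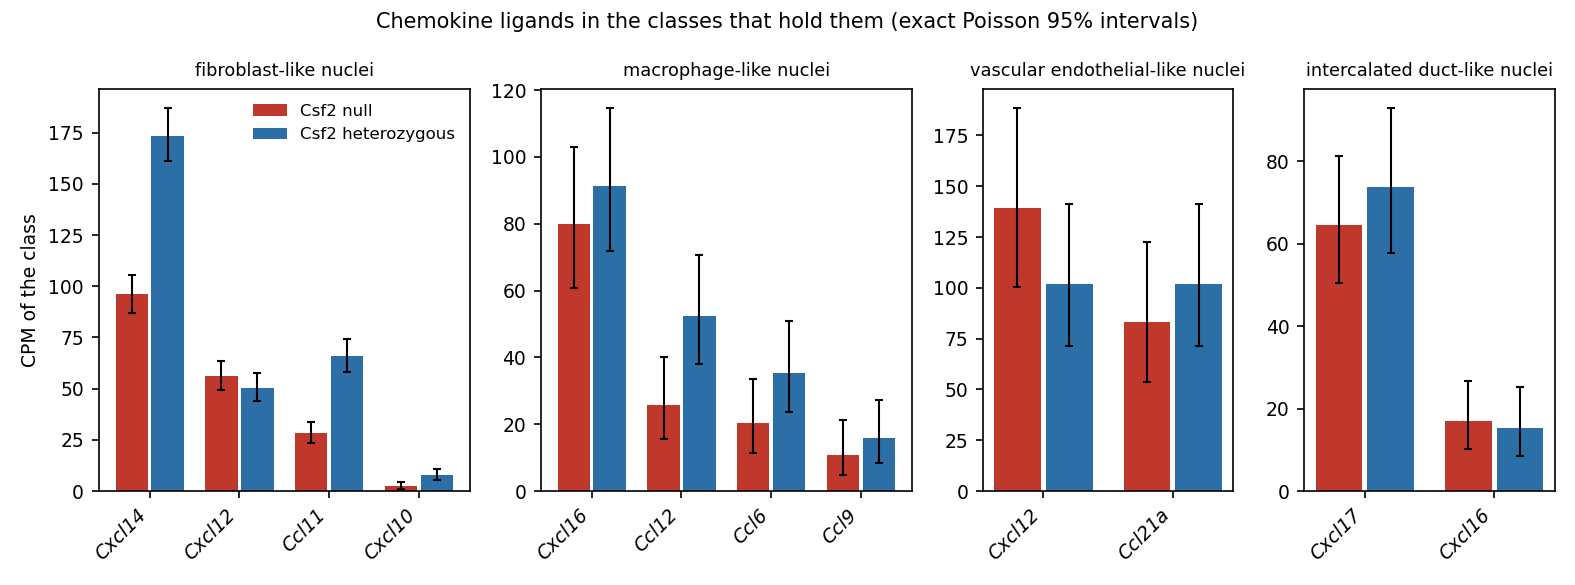
CPM of ligands within the class that holds them, null library (red) beside heterozygous library (blue), 1 library each, with exact Poisson 95% intervals for counting error. Cxcl14, Ccl11 and Ccl12 have separate or barely overlapping intervals (Cxcl14 96.0 CPM in the null and 174 CPM in the heterozygous library), while Cxcl12, Cxcl16, Cxcl17 and Ccl21a overlap.

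Ccl21a, the Ccr7 ligand of lymphatic vessels and lymph nodes, was almost confined, among endothelial nuclei, to a lymphatic endothelial-like group. The vascular endothelial-like class also held all 7 lymphatic markers, and when its nuclei were clustered again a group of 20 null and 11 heterozygous nuclei led by Reln, Mmrn1 and Prox1 carried 25 null and 35 heterozygous Ccl21a UMIs, against 0 null and 1 heterozygous UMI in the rest of the class. Its level was 687 CPM (524 to 884) over both libraries. Cxcl12 was placed the other way, with 1 UMI in the lymphatic group and 24 UMIs or 343 CPM in a group of 12 null and 20 heterozygous nuclei led by Edn1. One heterozygous nucleus held 17 of the Ccl21a UMIs. Over all nuclei Ccl21a had 81 UMIs in the null and 100 in the heterozygous library, a log2 ratio of -0.50 (-0.94 to -0.07), which was -0.33 (-0.79 to 0.14) without the richest nucleus of each library. In free RNA the Ccl21a ratio lay the other way, at 0.35 (0.01 to 0.69). The vascular endothelial-like class held 33.7% of the nuclear Ccl21a UMIs. Clusters 0 and 1 held 32 null and 31 heterozygous ones, at 2.38 and 2.81 CPM. The gene belongs to a family of near-identical copies (Ccl21b and Ccl21d had 1 UMI each), so its count may be incomplete, and 4930578G10Rik overlaps it on the opposite strand.

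Macrophage-like nuclei (353 null and 309 heterozygous, with all 14 macrophage markers) held a set of monocyte and T-cell attracting ligands. Cxcl16, the membrane-bound ligand of Cxcr6, had 59 UMIs or 79.8 CPM (60.7 to 103) in null and 75 UMIs or 91.4 CPM (71.9 to 115) in heterozygous macrophage-like nuclei, a log2 ratio of -0.20 (-0.71 to 0.32) that counting error covers. Intercalated and luminal duct-like nuclei came next at 16.3 and 10.4 CPM over both libraries. Ccl12, a mouse Ccr2 ligand close to Ccl2, had 19 UMIs or 25.7 CPM (15.5 to 40.1) in null and 43 UMIs or 52.4 CPM (37.9 to 70.6) in heterozygous macrophage-like nuclei, a log2 ratio of -1.03 (-1.89 to -0.22). Ccl6, a ligand of Ccr1, had 15 UMIs or 20.3 CPM in the null and 29 UMIs or 35.4 CPM in the heterozygous class, a log2 ratio of -0.80 (-1.81 to 0.15). Ccl9, another Ccr1 ligand, had 8 UMIs in the null and 13 in the heterozygous class. The monocyte attractants Ccl7 and Ccl2 had few UMIs in the class: Ccl7 had 4 in null and 11 in heterozygous nuclei, and Ccl2 had 5 in null and 3 in heterozygous nuclei. The summed macrophage markers were close between the libraries, at 4523 CPM in null and 4744 CPM in heterozygous nuclei of the class, while several lists of other cells were lower in the null class, among them these: the 11 fibroblast markers summed to 388 CPM in the null and 506 CPM in the heterozygous class, 7 of 8 B or plasma cell markers (Jchain at 0) to 275 CPM in the null and 422 CPM in the heterozygous class, and 8 of 15 NK, ILC or T markers (Cd3e, Cd3g and Cd3d among those at 0) to 46.0 CPM in the null and 82.9 CPM in the heterozygous class. Their part in the Ccl12 difference was not tested.

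The macrophage ligands had different levels in groups of immune nuclei, and whether single nuclei held several of them was not examined. When the immune nuclei were clustered again, Ccl6 and Ccl12 were highest in a group of 53 null and 76 heterozygous nuclei led by Lyve1 and Cd163, markers of resident perivascular macrophages. Ccl6 was at 80.5 CPM (53.0 to 117) there, with 7 null and 20 heterozygous UMIs. Ccl12 was at 74.5 CPM (48.2 to 110), with 6 null and 19 heterozygous UMIs. Another group of 32 null and 59 heterozygous nuclei, led by Kcnip4 and Rasgef1b with Lyz2, held 0 null and 12 heterozygous Ccl12 UMIs at 66.8 CPM (34.5 to 117). It also held 5 null and 16 heterozygous Cxcl16 UMIs at 117 CPM (72.4 to 179) over both libraries. The intervals of Ccl6 and Ccl12 in the first group overlapped those of other groups, so neither ligand stood above every other group beyond counting error. Cxcl16 was at 209 CPM (152 to 279) in a group of 63 null and 45 heterozygous nuclei with Cd74, H2-Ab1, Ciita and Itgax, genes of antigen presentation, where it had 18 null and 27 heterozygous UMIs. A group of 18 null and 3 heterozygous nuclei with duct genes held 15 null and 2 heterozygous Cxcl16 UMIs. Its level of 232 CPM (135 to 372) was the highest for Cxcl16 among the immune groups, and its interval overlapped that of the group at 209 CPM. The groups differ in their share of each library, so the class-wide ratios mix these groups in unequal parts.

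The lymphoid ligands were counted in few nuclei. Xcl1, which draws cross-presenting dendritic cells through Xcr1, had 4 UMIs or 23.1 CPM (6.30 to 59.2) in 83 null and 8 UMIs or 69.5 CPM (30 to 137) in 49 heterozygous NK, ILC or T-like nuclei, and 6 of the 8 came from 1 nucleus. Ccl5, a ligand made by T and NK cells, had 4 UMIs in the null and 6 in the heterozygous class. Ccl4, also made by activated lymphocytes and macrophages, had 1 UMI in the null and 7 in the heterozygous class. On clustering again, a group of 56 null and 34 heterozygous nuclei with the NK genes Ncr1, Eomes and Klrb1c held 11 Xcl1, 10 Ccl5, 8 Ccl4, 5 Ccl3 and 4 Ccl1 UMIs. A group of 16 null and 11 heterozygous nuclei with Il7r, Il1rl1 and Gata3, genes that also mark ILC2, held 0 UMIs of any of those 5, which at this depth shows only that none was detected.

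The inducible ligands were sparse, and 2 nuclei held most heterozygous UMIs of Cxcl10. Cxcl10, the interferon-induced ligand of Cxcr3, had 32 UMIs in 25 null nuclei and 63 UMIs in 14 heterozygous nuclei, a log2 ratio of -1.18 (-1.84 to -0.54). Of the heterozygous UMIs, 26 sat in 1 fibroblast-like nucleus, which also held 11 of the 12 heterozygous UMIs of Cxcl9, another interferon-induced Cxcr3 ligand. A further 22 sat in 1 myoepithelial or basal-like nucleus, with 0 UMIs of Cxcl9. Without these 2 nuclei, a choice made after seeing the counts, Cxcl10 had 32 UMIs in the null and 15 in the heterozygous library, and the log2 ratio turned to 0.89 (-0.03 to 1.88). The lower Cxcl10 count of the null library therefore rests on 2 heterozygous nuclei. Cxcl1, a neutrophil attractant, had 24 UMIs in 19 null nuclei and 28 UMIs in 21 heterozygous nuclei, with no class above 10 CPM.

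**Figure D3:**
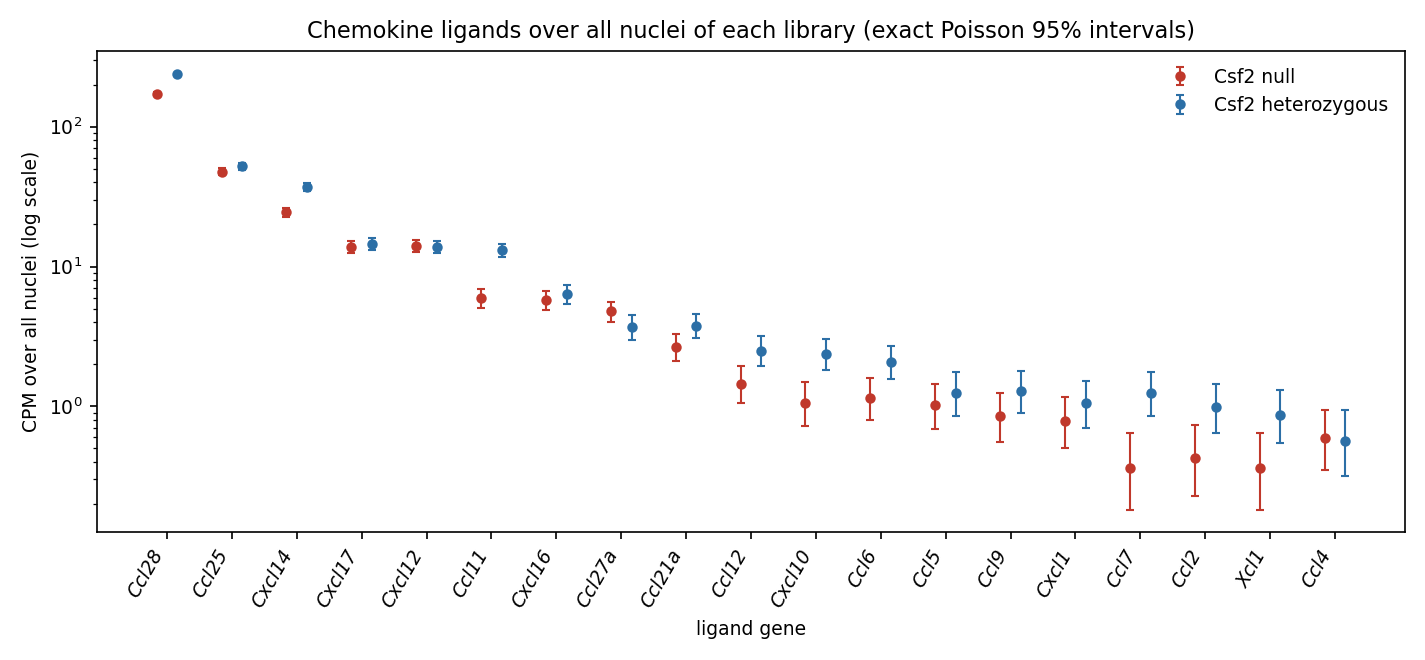
CPM of each ligand over all nuclei on a log axis, null library (red) left of heterozygous library (blue), 1 library each, with exact Poisson 95% intervals for counting error. Ccl28, Cxcl14 and Ccl11 have points whose intervals lie apart (Ccl11 5.92 CPM in the null and 13.1 CPM in the heterozygous library), and Cxcl17, Cxcl12, Cxcl16 and Ccl4 overlap.

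Across the whole set, ligand transcripts were a smaller part of the null library. The 38 ligands summed to 9157 UMIs or 301 CPM in null nuclei and 10573 UMIs or 399 CPM in heterozygous nuclei, a log2 ratio of -0.41 (-0.45 to -0.37). Without Ccl28 and Ccl25 the sum was 80.6 CPM in the null and 109 CPM in the heterozygous library, a log2 ratio of -0.44 (-0.52 to -0.36). Free RNA gave 256 CPM in the null and 355 CPM in the heterozygous library, a log2 ratio of -0.47 (-0.51 to -0.43), as far from 0 as in nuclei, and its part in the nuclear values was not tested beyond subtracting the estimated share, which left -0.40. By class the sum was 328 CPM in null and 474 CPM in heterozygous fibroblast-like nuclei (log2 ratio -0.53, -0.63 to -0.43), 314 CPM in null and 425 CPM in heterozygous macrophage-like nuclei (-0.44, -0.69 to -0.20), and 375 CPM in null and 380 CPM in heterozygous vascular endothelial-like nuclei (-0.02, -0.39 to 0.35). Leaving out Ccl28 and Ccl25 kept a lower level in fibroblast-like (-0.66, -0.79 to -0.54), macrophage-like (-0.45, -0.75 to -0.15) and myoepithelial or basal-like nuclei (-0.64, -1.15 to -0.15), and the 93 heterozygous UMIs of that last sum include 22 Cxcl10 UMIs of 1 nucleus. In clusters 0 and 1 the remainder gave -0.12 (-0.30 to 0.06) and in luminal duct-like nuclei 0.11 (-0.17 to 0.38), within counting error.

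Of the 19 described ligands, 5 were at least 2-fold lower in the null library over all nuclei (Ccl11, Ccl7, Ccl2, Cxcl10 and Xcl1), where 2.07% of the 15956 genes with at least 20 UMIs were. None was at least 2-fold higher, where 1.68% of genes were. The median log2 ratio of the 19 was -0.50, with 16 below 0, beside -0.08 and 61.1% below 0 over all those genes. Ccl7 had 11 UMIs in the null and 33 in the heterozygous library, a log2 ratio of -1.78 (-2.92 to -0.76). Ccl2 had 13 UMIs in the null and 26 in the heterozygous library (-1.20, -2.28 to -0.19), and Xcl1 had 11 UMIs in the null and 23 in the heterozygous library (-1.26, -2.45 to -0.17). In macrophage-like nuclei, the highest class of both, Ccl7 had 4 null and 11 heterozygous UMIs, and Ccl2 had 5 null and 3 heterozygous UMIs. Values over all nuclei also reflect the mix of classes. Macrophage-like nuclei were 2.54% of null and 3.62% of heterozygous nuclei, fibroblast-like 11.6% and 13.3%, and mucous acinar-like 6.61% and 3.89%. The part of this mix in the ratios was not tested. Without the richest nucleus of each gene in each library the 5 became 3, namely Ccl11, Ccl7 and Ccl2, with Cxcl10 at -0.71 and Xcl1 at -0.96. Ccl2, Ccl7, Ccl11 and Ccl12 are neighbours in 1 run of 6 ligand genes on mouse chromosome 11, with Ccl8 and Ccl1 after them. Ccl5, Ccl9, Ccl6, Ccl3 and Ccl4 form another run there.

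In fibroblast-like nuclei 2 of 8 ligands with enough UMIs were at least 2-fold lower in the null library, Ccl11 and Cxcl10, where 2.18% of 12780 genes were, and none was at least 2-fold higher, where also 2.18% were. Cxcl10 there had 11 UMIs in the null and 31 in the heterozygous class and a log2 ratio of -1.64, which was -0.15 without the richest nucleus of each library. In macrophage-like nuclei 1 of 8, Ccl12, was at least 2-fold lower, where 2.59% of 8703 genes were, and none was at least 2-fold higher, where 2.36% were. In free RNA 4 of 23 ligands were at least 2-fold lower (Ccl2, Ccl12, Ccl7 and Cxcl1), where 4.88% of 15417 genes were, and none higher, where 1.53% were. Ccl2 and Ccl7 were thus low in the null library both in nuclei and in free RNA, with free-RNA log2 ratios of -1.91 and -1.34, and Ccl11 was at -0.82 there. Nuclear counts include free RNA, so the 2 compartments are not independent. Ccl7 was at 0.36 CPM in null and 1.25 CPM in heterozygous nuclei, beside 0.60 and 1.52 CPM in free RNA. Ccl2 was at 0.43 CPM in null and 0.98 CPM in heterozygous nuclei, beside 0.37 and 1.39 CPM in free RNA. A threshold crossed in 1 compartment and not in another does not show that they differ, and that difference was not tested.

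**Figure D4:**
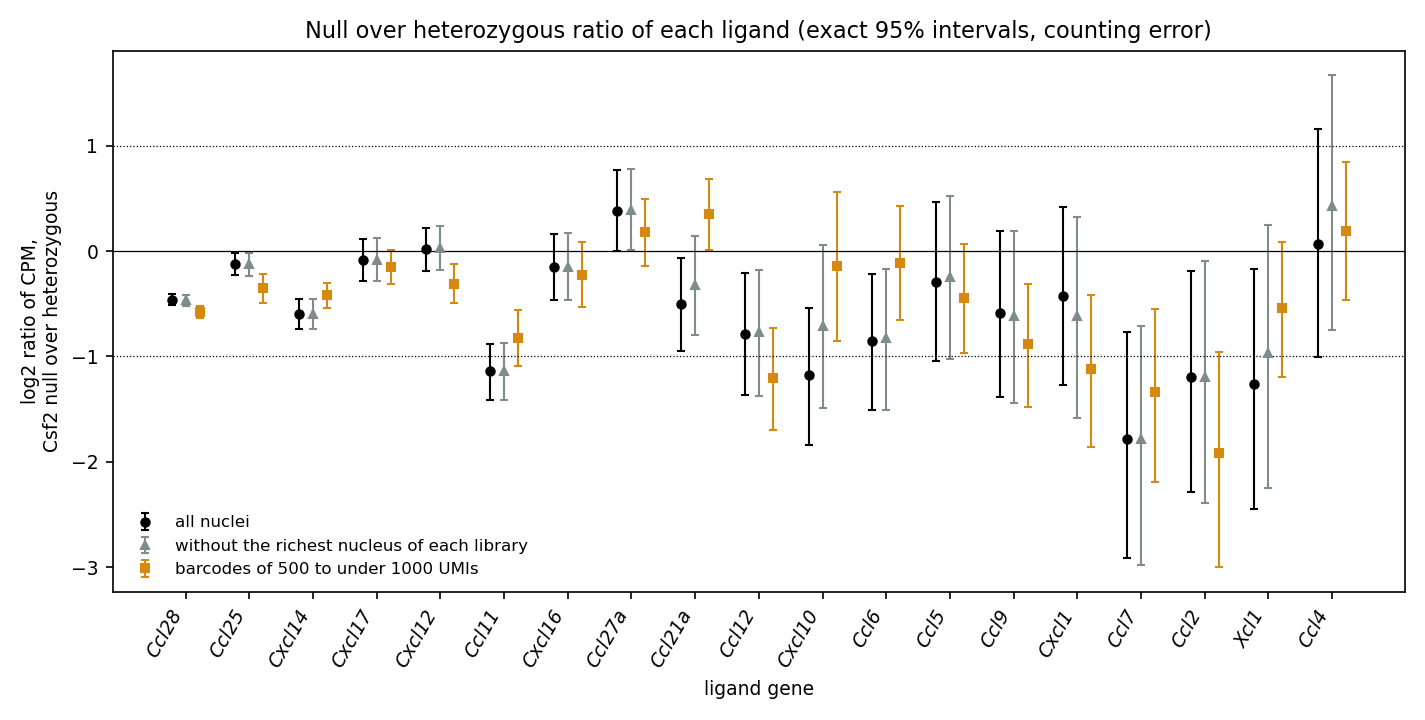
Log2 ratio of CPM, null over heterozygous, of each ligand over all nuclei (black), without the richest nucleus of each library (grey) and in barcodes of 500 to under 1000 UMIs, read as free RNA (orange), with exact 95% intervals for counting error and dotted lines at 2-fold. Ccl11, Ccl7 and Ccl2 stay below -1 without the richest nucleus, while Cxcl10 moves to -0.71.

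Most receptors of these ligands were scarce, and 10 of 24 had at least 20 UMIs. None of the 10 was at least 2-fold higher in the null library, and 1, Ccr1, was at least 2-fold lower, beside 1.68% of all genes higher and 2.07% lower. Ccr1, the receptor of Ccl6 and Ccl9, had 11 UMIs in null and 35 in heterozygous nuclei, and in macrophage-like nuclei 3 in the null and 26 in the heterozygous library. Ccr2, the receptor of Ccl2, Ccl7 and Ccl12, had 167 UMIs in null and 185 in heterozygous nuclei and was at 389 CPM in NK, ILC or T-like nuclei, where it had 66 null and 46 heterozygous UMIs. Cxcr6, the receptor of Cxcl16, had 103 UMIs in null and 53 in heterozygous nuclei (log2 ratio 0.76, 0.27 to 1.27). Only 9 null and 3 heterozygous UMIs of it were in NK, ILC or T-like nuclei, its highest class. It overlaps Fyco1 on the opposite strand.

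Ccr9, the receptor of Ccl25, had 392 UMIs in null and 192 in heterozygous nuclei (log2 ratio 0.83, 0.58 to 1.09), with 235 null and 112 heterozygous UMIs in clusters 0 and 1, and it overlaps Lztfl1 and Slc6a20a, so its count is uncertain. Ackr3, the atypical receptor that clears Cxcl12, was at 85.6 CPM in myoepithelial or basal-like nuclei, with 112 UMIs in the null and 63 in the heterozygous class. Ackr4, the atypical receptor of Ccl21 and Ccl25, had 689 UMIs in null and 414 in heterozygous nuclei (0.54, 0.36 to 0.72) and overlaps Acad11. Cx3cr1 had 658 UMIs in null and 444 in heterozygous nuclei, with 87 null and 73 heterozygous UMIs in macrophage-like nuclei, and several genes overlap it. Ccrl2 had 28 UMIs in null and 14 in heterozygous nuclei, and Ackr1 had 16 in null and 15 in heterozygous nuclei. Ccr10, the receptor through which Ccl28 acts on plasma cells, had 4 UMIs in null and 1 in heterozygous nuclei, and Ccr3, the receptor of Ccl11, had 0 in both.

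Of 3 chemokines outside the naming rule with enough UMIs, none differed 2-fold, which is near the share over all genes (1.68% higher and 2.07% lower): Cx3cl1 had 280 UMIs in null and 264 in heterozygous nuclei and was highest in intercalated duct-like nuclei, Pf4 had 105 in null and 76 in heterozygous nuclei, and Cklf had 110 in null and 120 in heterozygous nuclei, both highest in macrophage-like nuclei. Of 14 regulators of chemokine genes 12 had enough UMIs and none was 2-fold higher or lower, also near that share. Il33, the alarmin of fibroblasts, had 573 UMIs in null and 715 in heterozygous fibroblast-like nuclei (log2 ratio -0.47). Il4ra, a receptor chain of IL-4 and IL-13, was at -0.70 (-1.0 to -0.40) over all nuclei, Stat6 at 0.07 and Nfkbia at 0.26. These are examples from the list, and the link of any regulator to a ligand was not tested.

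As a description over the 15 classes, which share libraries and free RNA, the genes whose log2(CPM + 1) followed Ccl28 most closely were Sgsm3 (Pearson r 0.963), Ccdc149 (0.953) and Arfgef3 (0.940). Those nearest Ccl25 were Stx18 (0.933), Ganab (0.932) and Lig3 (0.929). Those nearest Cxcl14 were Pi15 (0.903), Dpep1 (0.896) and Srpx (0.883), and those nearest Cxcl17 were Lipe (0.884), Esp18 (0.874) and Mal2 (0.868).

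The other 19 ligand genes stayed under 20 UMIs. The highest was Ccl3 with 17, which had 3 UMIs in null and 14 in heterozygous nuclei. Ccl19 had 10 UMIs in null and 4 in heterozygous nuclei, Ccl24 had 9 in null and 4 in heterozygous nuclei, Cxcl9 had 2 in null and 12 in heterozygous nuclei, and Ccl20 had 3 in null and 7 in heterozygous nuclei. Cxcl2, Ccl8, Cxcl13, Ccl1, Cxcl15, Ccl17, Ccl22, Cxcl5, Ccl21b, Ccl21d and Ccl26 had between 1 and 9 UMIs over both libraries. Ccl27b, Cxcl11 and Cxcl3 had 0, which allows up to 3 UMIs of the whole.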

How the data were processed

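The deposited files are raw UMI counts per gene and barcode for each library, made by the authors with Cell Ranger 7.0.0 on GRCm39, per the submitters' processing notes. The annotation, the treatment of introns and the use of strand in counting are not given in the sources used here. Each file holds barcodes from 430 UMIs (null) or 531 UMIs (heterozygous) upward, 75630815 UMIs in the null and 76002888 UMIs in the heterozygous library. A barcode was kept from 1000 UMIs and 300 genes upward if mitochondrial transcripts made up less than 5% of it (17663 null, 19387 heterozygous) and clustered in Scanpy 1.11.5 (2000 variable genes without chemokine ligands, 30 components, 20 neighbours, Leiden resolution 1). Clusters in which the 8 leading secretory genes reached at least 0.75 of their share in barcodes of 500 to under 1000 UMIs were set aside as free RNA, which left 22408 nuclei. The low barcodes also needed 300 genes, and their summed profile took only those under 5% mitochondrial transcripts. A cluster was named from at least 3 markers (2-fold, at least 10 UMIs) and at least 40% of a list, and the 40% and the joining of clusters 0 and 1 were set after the clusters were seen.

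Levels are CPM of the summed counts of a class with exact Poisson intervals, ratios have exact conditional binomial intervals, and shares have exact binomial intervals, also after thinning each nucleus to 1000 UMIs. All cover counting error only. Scrublet marked 24 of 13876 null nuclei (0.173%, so it did not work there) and 392 of 8532 heterozygous nuclei, and doublets were kept. The genes named are every ligand with at least 20 UMIs, those with at least 100 in full, receptors with at least 20 UMIs, and for the 4 ligands with most UMIs the 3 genes of highest Pearson correlation among genes with at least 200 UMIs. The members and lists were chosen with earlier results of these data known. Promoters came from a RefSeq table (GRCm38.p6) by symbol, with 27 of 38 members matched. Gene overlaps were looked up in GENCODE M21 on GRCm38, for names only. Values of 1 receptor and 1 regulator of the lists are not reported here.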

Additional observations from a re-analysis of the deposited data

How the results depend on the processing

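Alternatives were resolution 0.5 and 2.0, 4000 variable genes, 500 or 2000 UMIs as the minimum per barcode, under 1% mitochondrial UMIs, removal of called doublets, free-RNA clusters included, free RNA subtracted, scaling outside the 100 most abundant free-RNA genes, other minima per gene and class per nucleus by markers. After the data were seen, the richest nucleus of each gene, barcodes over 10000 UMIs, nuclei with shared barcodes and the 2 nuclei rich in Cxcl10 were also left out. Of the values for the main comparisons 61 kept their side and size and 6 moved. Of the values for single ligands and classes 417 held, 4 moved and 1 turned round. The summed ligands were at -0.31 when scaled outside the 100 free-RNA genes, beside -0.41. The ligands at least 2-fold lower were 2 with a minimum of 50 UMIs, 17 with no minimum and 3 without the richest nuclei, beside 5, and those at least 2-fold higher were 2 with no minimum, beside 0. The share of all genes under these other settings is not given, so these counts say nothing about the ligands as a set. The 17 include ligands with almost no UMIs, such as Ccl26 with 0 in null and 1 in heterozygous nuclei. With classes set per nucleus by markers only 2 of 19 ligands were highest in the same class, and the cause was not tested. Cxcl10 turned to 0.89 without the 2 nuclei that hold at least 20 of its UMIs. With free RNA subtracted the sum was 0.03 in luminal duct-like and -1.18 in myoepithelial or basal-like nuclei. Ccl28 was at -0.37 under that scaling and Ccl9 at -1.39 with at least 2000 UMIs. At resolution 0.5 and at 500 UMIs, Ccl5, Xcl1 and Ccl4 were highest in macrophage-like nuclei, with which the NK, ILC or T-like nuclei had merged. Ratios of ligands under 100 UMIs are limited by depth. No paired analysis was possible because each genotype has 1 library.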
